A study of Caenorhabditis elegans with 2 samples.

Results

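The genes described here encode the machinery of protein synthesis: translation initiation factors (symbols beginning with eif-), elongation factors (eef-) and aminoacyl-tRNA synthetases (a letter for the amino acid, then ars- and a number). A rule on the symbol picked them from the protein-coding genes of the Ensembl annotation of the C. elegans assembly WBcel235. This assembly is the build ce11. The set itself was chosen with earlier results of these data known. The rule found 63 of 19973 protein-coding genes on the 6 nuclear chromosomes, namely 25 initiation factors, 6 elongation factors and 32 synthetases. These classes follow the symbol only, and RefSeq names eif-4A3, counted among the initiation factors, just as an RNA helicase. The question put to the data was which of these genes had a binding peak of the transcription factor UNC-62 at the gene start in embryos, and whether they had one more often than other genes.

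UNC-62 is a homeodomain transcription factor of the Meis/Prep family. Its binding was mapped by chromatin immunoprecipitation with sequencing (ChIP-seq) in whole embryos of mixed stages and mixed sex, of strain OP600, whose labelled genotype is unc119(ed3) with the transgene wgIs600. The transgene encodes UNC-62 joined to TY1, EGFP and FLAG tags, and carries unc119. The sequences that drive it and the state of the strain's own unc-62 gene are not stated in the labels. There was 1 group with 2 biological replicates, made from separate biosamples of this strain, and no second condition. No control library is among the samples analysed here. A peak from whole embryos can come from any of their cells, and how many cells were bound cannot be told apart from how strongly each was bound. Peak lists hold no expression values, so the labelled stage was not checked against marker genes.

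In translation, initiation factors bring the initiator tRNA, the small ribosomal subunit and the mRNA together. Elongation factors then deliver charged tRNAs to the ribosome and move it along the mRNA. Aminoacyl-tRNA synthetases charge each tRNA with its amino acid, and animals use synthetases in the cytoplasm and in mitochondria, some of them encoded by separate nuclear genes.

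The peaks used were those of the authors' IDR list, named for the irreproducible discovery rate, a filter meant to keep peaks that rank alike in both replicates. It held 2732 peaks on the nuclear chromosomes. A gene counted as having a peak where a summit, the point of highest signal, lay in a window around its outermost annotated start, reaching 1000 bp upstream and 500 bp downstream. The signal is the value that the authors' peak caller gave each peak, and it can be compared only within a list. In the IDR list it ran from 59.9 to 973, with a median of 94.4 over the nuclear peaks, and rank 1 is the strongest peak. The replicate lists were long, with 21749 peaks in replicate 1 and 30000 in replicate 2, and they held peaks and background. Whether the round number of replicate 2 is a limit on the length of its list is not known, and such a limit would leave out its weakest peaks. The pooled list, called on both replicates together, held 17083. Sequencing depth per library is unknown here, so the absence of a peak cannot be read as the absence of binding.

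The DNA under 4 of the summits is printed in this paragraph, chosen to include the strongest peak at these genes and at least 1 gene of each role. Each line gives 101 bases centred on the summit, 5′ to 3′ on the strand of the gene, from the NCBI RefSeq sequence of the same assembly. The intervals on ce11 are chrIII:6972049-6972149 (minus strand) for eef-1A.1, chrX:7823243-7823343 (plus strand) for eef-1A.2, chrII:14795069-14795169 (plus strand) for eif-3.B and chrII:11464632-11464732 (minus strand) for aars-1. Capitals mark the motif GAGAGA, the motif ACGCAG and the E box CANNTG, each searched on both strands. The summit of eif-3.B held none of the motifs searched, and the 3 printed with GAGAGA are the only ones of the 9 that hold it.
eef-1A.1: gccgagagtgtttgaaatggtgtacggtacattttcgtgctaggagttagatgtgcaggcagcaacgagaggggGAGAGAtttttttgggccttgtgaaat
eef-1A.2: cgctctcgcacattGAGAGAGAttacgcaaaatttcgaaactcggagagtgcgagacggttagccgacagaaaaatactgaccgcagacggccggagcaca
eif-3.B: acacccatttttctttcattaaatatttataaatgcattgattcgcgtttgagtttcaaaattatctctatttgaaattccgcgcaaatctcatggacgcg
aars-1: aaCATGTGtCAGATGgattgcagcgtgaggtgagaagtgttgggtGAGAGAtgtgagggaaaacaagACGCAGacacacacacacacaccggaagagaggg

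Of the 63 translation genes, 9 had an IDR summit at the start (14.3%, exact Clopper-Pearson 95% interval 6.75 to 25.4), against 1225 of the 19910 other protein-coding genes (6.15%). The ratio of the shares was 2.32, with 1.10 to 4.13 when the interval of the 63 genes was divided by the share of the other genes. By class, a summit was found at 4 of 6 elongation factors (66.7%, 22.3 to 95.7), 3 of 25 initiation factors (12%, 2.55 to 31.2) and 2 of 32 synthetases (6.25%, 0.766 to 20.8). The share of the elongation factors, here only the genes with an eef- symbol, was 10.8 times that of other genes. Its interval lay wholly above 6.15%. For initiation factors the ratio was 1.95 and for synthetases 1.02, and both intervals held the share of the other genes. The interval of the elongation factors overlapped that of the initiation factors and lay narrowly above that of the synthetases (22.3 against 20.8). This separation rests on 4 genes, and under some alternatives described at the end only 3 elongation factors had a summit. No class intervals were made for those alternatives. These intervals cover counting error over genes only, since both replicates went into a single IDR list, and no test of the difference was made. Neighbouring genes can share a summit, so genes are not independent counts.

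**Figure D1:**
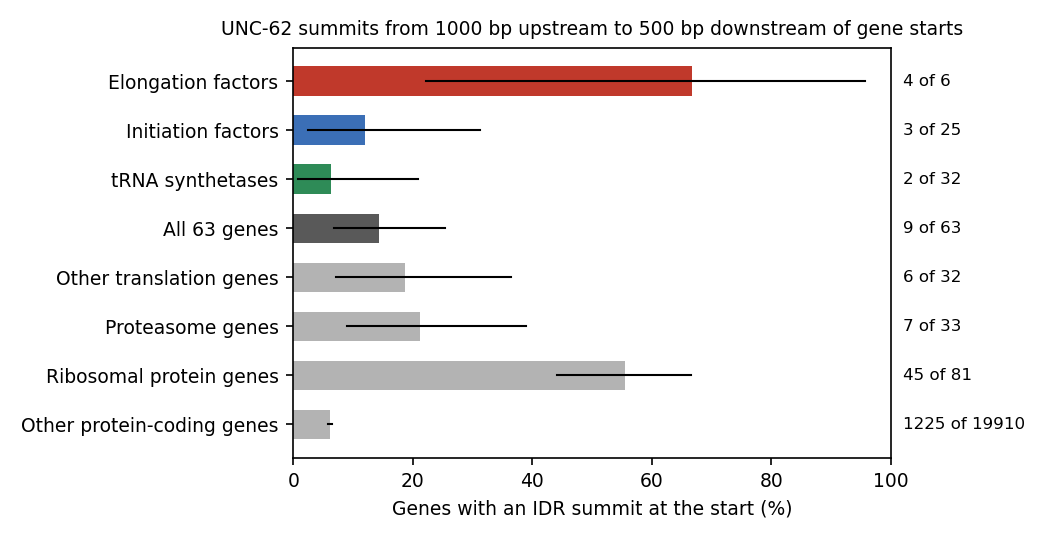
Share of genes with an IDR summit at the start (percent, horizontal axis) for the 3 classes of translation genes, all 63 together, and the other gene groups in grey; bars are shares, lines are exact 95% intervals and the counts stand at the right. Elongation factors reach 66.7% with a wide interval, initiation factors and synthetases lie at 12% and 6.25%, and the other protein-coding genes at 6.15%.

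The 3 strongest peaks of the set lay at elongation factor genes, and eef-1B.1, also an elongation factor, had a weak one. The gene eef-1A.1 (WBGene00001168) encodes elongation factor 1-alpha, the GTPase that brings charged tRNAs to the ribosome. Its peak, on chromosome III from 6972012 to 6972179, had an IDR signal of 166 (rank 417), a signal of 96.3 in replicate 1 (rank 539) and 62.8 in replicate 2 (rank 434). The summit was intergenic, 387 bp upstream of the start. With 168 bp this peak was narrower than the usual 376 bp, the width of 86.9% of IDR peaks. The same summit lay 154 bp upstream of the start of rfc-4, which runs the other way and encodes a subunit of the replication factor C clamp loader, and 14 bp upstream of the annotated microRNA gene cel-mir-5549.

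The paralog eef-1A.2 (WBGene00001169) encodes the same factor and also had a peak. It lay on chromosome X from 7823105 to 7823480, with its intergenic summit 361 bp upstream of the start. Its IDR signal was 126 (rank 760), and its signals were 77.2 in replicate 1 (rank 863) and 47.3 in replicate 2 (rank 778). No other protein-coding gene shared this summit, and the start of the annotated non-coding RNA gene R03G5.8 lay 232 bp away. Both eef-1A summits thus lay in intergenic DNA at a like distance from their genes. An intergenic summit was also found for 84.2% of the other genes with a summit. The coding sequences of the pair were 94.0% identical over 1389 bp each, with a longest shared run of 53 bp. The 377 bp around the summits shared no run longer than 9 bp on either strand, so the peaks lay on distinct sequence. In the lines printed above, each of them held GAGAGA, once in eef-1A.1 and in 2 overlapping copies in eef-1A.2. GAGAGA was also found at 31.9% of the other IDR summits.

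The gene eef-2 (WBGene00001167) encodes elongation factor 2, which moves the ribosome along the mRNA. Its peak on chromosome I, from 9163328 to 9163703, had an IDR signal of 131 (rank 701), 75.4 in replicate 1 (rank 906) and 53.0 in replicate 2 (rank 611). Its summit lay 15 bp upstream of the start and 250 bp upstream of the divergent gene clsp-1. Of the motifs searched, the 101 bp there held 1 E box only. These 3 elongation factor peaks ranked within the first 1000 of each list, replicate 1 and replicate 2 included.

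The fourth, eef-1B.1 (WBGene00018846), encodes a beta or delta subunit of the complex that recharges elongation factor 1-alpha with GTP. Its peak on chromosome III, from 7973166 to 7973541, was much weaker, with an IDR signal of 62.9 (rank 2577). The replicates were unlike each other here, with a signal of 52.7 and rank 1772 in replicate 1, and 8.57 and rank 27397 in replicate 2. The strongest replicate 2 peak anywhere in the window of this gene had a signal of 10.8 (rank 17354). The IDR summit lay 32 bp inside the gene, in exon sequence that carries no coding bases in the annotation. It was shared with aco-2, the mitochondrial aconitase gene, whose start lay 363 bp away, and it fell inside the annotated non-coding RNA gene F54H12.9. None of the motifs searched occurred within 50 bp of this summit. The remaining eef- genes, eef-1B.2 and eef-1G, which encode further subunits of that exchange complex, had no peak at the start in any list. Their nearest IDR summits lay 77644 bp and 24824 bp from the start.

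**Figure D2:**
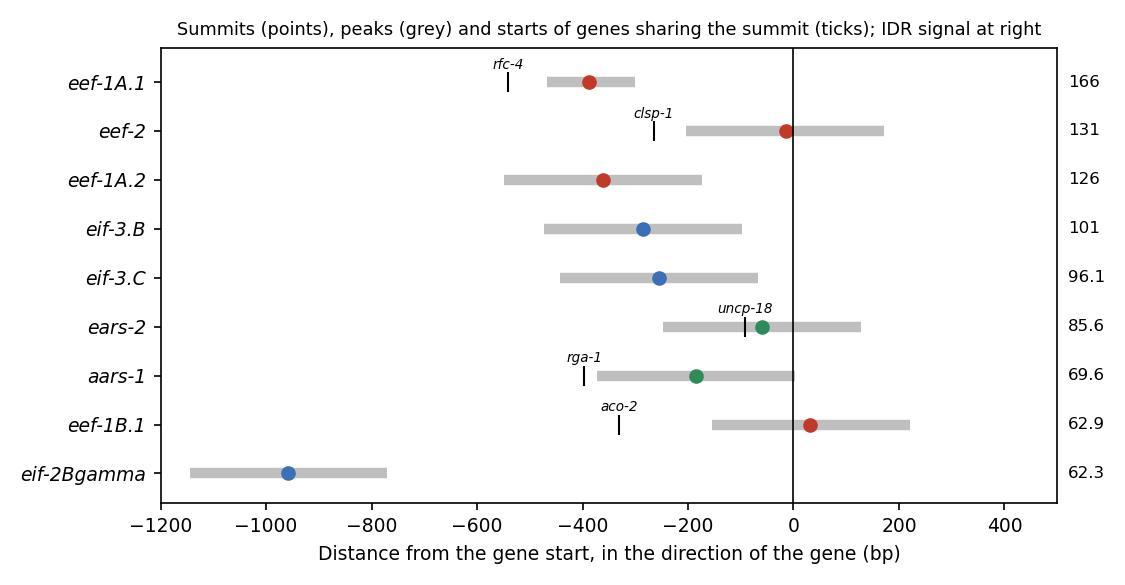
Position of the summit (coloured point) and peak (grey bar) relative to the gene start at 0, in bp in the direction of the gene, for the 9 genes with an IDR summit, in order of signal, which stands at the right; red is elongation, blue initiation and green synthetase, and ticks mark the starts of other protein-coding genes that share the summit. The summits run from 958 bp upstream (eif-2Bgamma) to 32 bp downstream (eef-1B.1), and 5 of 9 are shared.

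Among initiation factors with an eif- symbol, the peaks lay at subunits of eIF3 and eIF2B. The eIF3 complex binds the small ribosomal subunit and holds the other factors in place. Of its 11 genes, 2 had a summit (18.2%, 2.28 to 51.8), an interval that held the 6.15% of other protein-coding genes. The gene eif-3.B (WBGene00001225), on chromosome II, had a peak from 14794931 to 14795306 with an IDR signal of 101 (rank 1212), 62.8 in replicate 1 (rank 1303) and 41.4 in replicate 2 (rank 1042). The summit was intergenic, 285 bp upstream, and shared with no other protein-coding gene. Its 101 bp, printed above, had a GC content of 32.7%, the lowest of the 9.

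The gene eif-3.C (WBGene00001226), on chromosome I, had a peak from 9979729 to 9980104 with an IDR signal of 96.1 (rank 1339), 64.3 in replicate 1 (rank 1254) and 30.7 in replicate 2 (rank 1835). The summit was intergenic, 255 bp upstream of eif-3.C, and the peak overlapped the end of sys-1, a beta-catenin gene on the same strand. It was not the peak at the start of sys-1, which had a summit of its own with a signal of 76.6. The 101 bp at the eif-3.C summit held 2 E boxes and no other motif searched. The other eIF3 genes had no IDR summit at the start.

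The eIF2B complex exchanges GDP for GTP on eIF2, the factor that carries the initiator tRNA. Of its 5 genes, eif-2Bgamma (WBGene00004090) had a summit, 958 bp upstream of the start and near the edge of the window. The peak, on chromosome II from 6968418 to 6968793, had an IDR signal of 62.3 (rank 2611), 42.4 in replicate 1 (rank 2462) and 19.5 in replicate 2 (rank 4154). The summit lay in an intron of the upstream gene C15F1.5, 48 bp upstream of sup-39 and 55 bp upstream of mir-1831, both annotated as small nuclear RNA genes. With a window of 500 bp upstream to 200 bp downstream this gene had no summit. None of the 3 eIF2 genes had a summit, and neither did eif-1, eif-1.A, eif-2A, eif-2D, eif-4A3 or eif-6.

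Both synthetases with a summit are named mitochondrial in RefSeq. The gene ears-2 (WBGene00001338) encodes a glutamyl-tRNA synthetase of mitochondria, and its peak lay on chromosome IV from 390340 to 390715. It had an IDR signal of 85.6 (rank 1616), and 70.7 in replicate 1 (rank 1030) but 11.3 in replicate 2 (rank 15736). The intergenic summit lay 60 bp upstream of ears-2 and 32 bp upstream of uncp-18, a divergent gene, so uncp-18 was the nearer. It held none of the motifs searched.

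The gene aars-1 (WBGene00000196) encodes the alanyl-tRNA synthetase of mitochondria. Its peak, on chromosome II from 11464494 to 11464869, had an IDR signal of 69.6 (rank 2204), 41.3 in replicate 1 (rank 2560) and 32.2 in replicate 2 (rank 1669). The intergenic summit lay 185 bp upstream of aars-1 and 212 bp upstream of the divergent gene rga-1. As printed above, the sequence held GAGAGA, the motif ACGCAG and 2 E boxes, the largest number of different motifs among the 9 summits.

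Of the 4 synthetases with a RefSeq name that says mitochondrial, 2 had a summit (50%, 6.76 to 93.2), and rars-2 and pars-2 had none. None of the 10 named cytoplasmic had a summit (exact upper limit 30.8%), nor did any of the 18 whose name states no compartment (18.5%). The share of other genes, 6.15%, lay within the intervals of both groups at 0 and just under that of the 4, so counts this small do not separate the compartments. With the strongest peaks of replicate 2 alone, ears-2 had no summit, while the cytoplasmic cars-1 (cysteine) and fars-1 (phenylalanine), for which no compartment is stated, had one. That list thus gave a summit to 1 synthetase named mitochondrial, 1 named cytoplasmic and 1 of no stated compartment.

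The replicates ranked most of the 9 peaks in a like place, with 3 exceptions. Replicate 1 placed all 9 within its 2754 strongest peaks, the number of peaks in the IDR list. Replicate 2 did so for 6, and placed eif-2Bgamma, ears-2 and eef-1B.1 lower. Ranks over 10000 in replicate 2 were found for 49 of the nuclear IDR peaks (1.79%), of which ears-2 and eef-1B.1 were 2, and for 0 in replicate 1. Of the 2732 nuclear IDR peaks, 2730 overlapped a peak of replicate 1 and 2708 a peak of replicate 2. Over these peaks the median rank was 1365.5 in replicate 1 and 1389.5 in replicate 2.

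**Figure D3:**
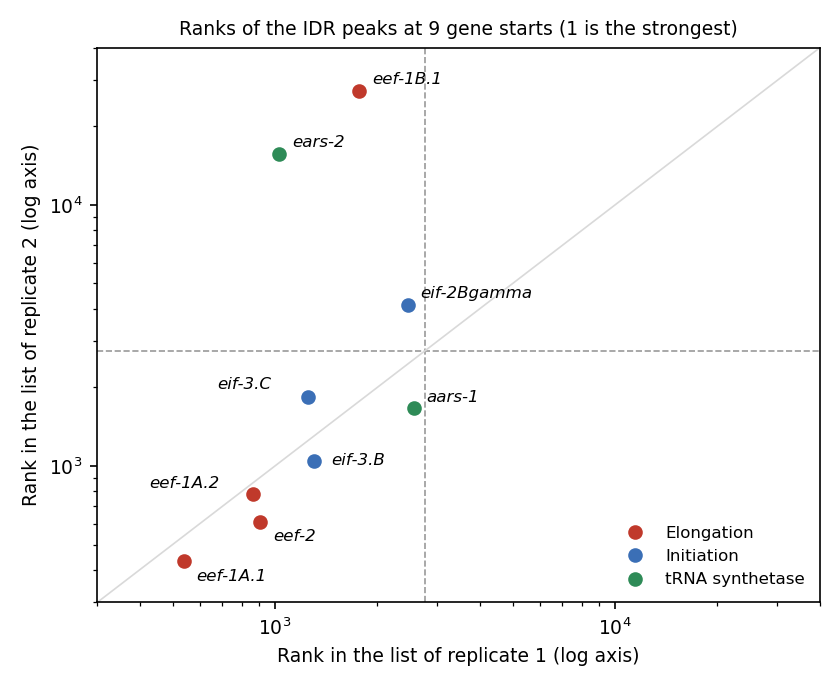
Rank of the 9 peaks in the list of replicate 1 (horizontal) and replicate 2 (vertical), both on log axes with 1 as the strongest; dashed lines mark the 2754 strongest of each list and the grey line equal ranks. In the lower left lie 6 points, while eif-2Bgamma, ears-2 and eef-1B.1 lie above the horizontal dashed line, at ranks 4154, 15736 and 27397 in replicate 2.

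Beside peaks at other gene starts, those at translation genes had a like median strength and like positions. The median signal was 96.1 at the 9 genes (62.3 to 166) and 90.4 at the 1225 other genes with a summit, and the median IDR rank was 1339 and 1485. A summit upstream of the start was found for 8 of 9 (88.9%), against 90.6% of the other genes with one. Intergenic summits made up 7 of 9 (77.8%) and 84.2%. Another protein-coding start shared the summit for 5 of 9 (55.6%), against 39.6% of other genes with a summit. When each summit was given only to the nearest start, 7 of the 63 genes kept one (11.1%), against 4.89% of other genes, and eef-1A.1 and ears-2 lost theirs to rfc-4 and uncp-18.

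Weak peaks were also found at the starts of many translation genes, and most of these were at initiation factors. Without the 9 genes that had an IDR summit, the pooled list had a peak at 22 of the 63 genes (34.9%), against 21.7% of other protein-coding genes. They were 14 of 25 initiation factors (56%), 0 of 6 elongation factors and 8 of 32 synthetases (25%). With the IDR peaks included, the pooled list had a peak in the window of 31 of the 63 genes (49.2%), against 27.8% of other protein-coding genes. A peak in both replicate lists was found at 24 (38.1%), against 21.9%. No peak of either replicate was found at 18 (28.6%), against 46.3%. The eef- genes thus either had an IDR peak or none in any list. In contrast, 9 of 25 initiation factors (36%) and 6 of 32 synthetases (18.8%) had a peak in both replicate lists but no IDR summit. That was so for 15.9% of other genes, a share near that of the synthetases. The share of the initiation factors was near that of proteasome genes (36.4%) and of the 32 other genes linked to translation described below (34.4%). For ribosomal protein genes it was 25.9%.

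Several of these weak peaks lay close to the lower limit of the IDR list, which is the same as the 2754 strongest peaks of the pooled list. The closest was eif-3.E, an eIF3 subunit gene, with a pooled signal of 58.9 (rank 2815) and ranks of 2986 in replicate 1 and 3637 in replicate 2. Next came cars-1, the cytoplasmic cysteinyl-tRNA synthetase, with a pooled signal of 58.1 (rank 2874) and ranks of 4270 in replicate 1 and 1868 in replicate 2. The gene eif-6, a factor of large ribosomal subunits, had a pooled signal of 42.6 (rank 4283), and it ranked 13626 in replicate 1 and 2602 in replicate 2. Further down were eif-3.H (pooled rank 5604), eif-3.J (5828) and eif-2D (6165). With a peak in replicate 2 only, fars-1 had a pooled rank of 3195. Just inside the limit were eif-2Bgamma and eef-1B.1, at ranks 2611 and 2577, so the count of 9 depends on where the list ends. When the pooled list was read further, to rank 5508, 13 of the 63 genes had one (20.6%), against 11.9% of other genes.

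**Figure D4:**
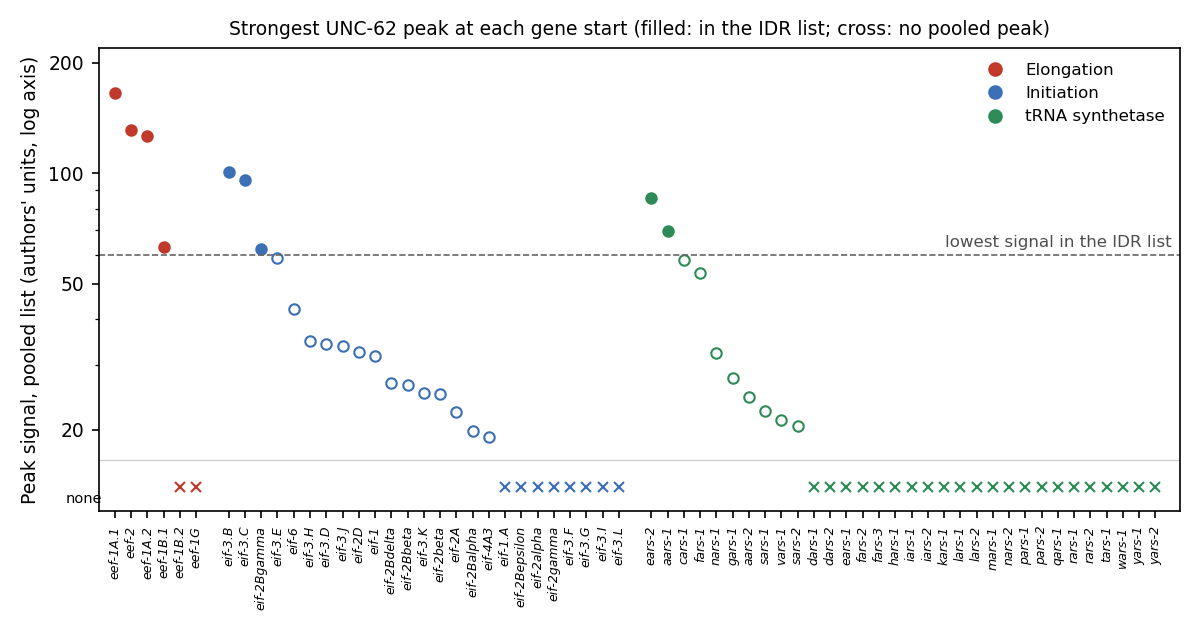
Signal of the strongest pooled peak at the start of each of the 63 genes (log axis, authors' units), by class and in falling order; filled points are peaks of the IDR list, open points weaker pooled peaks, and crosses genes with no pooled peak. The dashed line is the lowest signal in the IDR list, 59.9; eif-3.E and cars-1 lie just under it at 58.9 and 58.1, and 32 genes have a cross.

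C. elegans transcribes many genes in operons, from a promoter before the first gene, so a start inside an operon can lack a promoter of its own. Here a gene was called operon-like where a protein-coding gene on the same strand ended within 500 bp upstream of its start, which is a rule of position, not a measurement of operons. By that rule 17 of the 63 genes were operon-like (27.0%), against 18.1% of other genes, with 11 of 32 synthetases (34.4%), 5 of 25 initiation factors and 1 of 6 elongation factors. Of the 17, eif-3.C and eif-2Bgamma had a summit in the window of their own start (11.8%), against 112 of 3598 operon-like other genes (3.11%). That share rests on 2 genes and no interval was made for it. The summit of eif-2Bgamma lay 958 bp upstream, in an intron of C15F1.5. When the start of the first gene in such a run was used, a choice made after seeing the data, 10 of the 63 genes had a summit (15.9%), against 7.31% of other genes. The genes added were eif-2alpha, the eIF2 subunit whose phosphorylation slows initiation, and gars-1, the glycyl-tRNA synthetase gene, through summits at the starts of phb-1 (signal 62.5) and prp-19 (73.4). The gene lost was eif-2Bgamma, whose run began at sod-1.

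The recognition motifs of UNC-62 and its partners were not found at these 9 summits. TGACAG, the core site of Meis factors, was found on either strand within 50 bp of 0 of 9 summits, against 12.9% of the other 2723 nuclear IDR summits and 10.6% of the 999 at other gene starts. The PBC-Hox sites TGATTGAT and TGATTTAT were each at 0 of 9, against 3.42% and 2.68% of other IDR summits. GAGAGA was at 3 of 9 (33.3%), namely eef-1A.1, eef-1A.2 and aars-1, against 31.9% of other IDR summits. ACGCAG was at 1 of 9 (11.1%) against 14.2%, and the E box CANNTG at 4 of 9 (44.4%) against 49.4%. The exact 95% interval of 0 of 9 reaches 33.6%, so with 9 summits these counts cannot be told apart from the shares elsewhere. TGACAG did occur in the whole window of 1501 bp around 24 of the 63 starts (38.1%), against 41.3% of other genes. The median GC content of the 101 bp was 49.5% at the 9 summits (32.7 to 53.5) and 45.5% at other IDR summits. A match is a description of letters, and its absence in such a window says nothing on whether a factor binds there.

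The 9 genes were spread over 5 chromosomes: 2 of 21 translation genes on I, 3 of 14 on II, 2 of 10 on III, 1 of 10 on IV, 0 of 7 on V and the only one on X. The share of other genes with a summit was 8.16% on I, 6.17% on II, 7.72% on III, 4.92% on IV, 3.59% on V and 8.68% on X.

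Other genes linked to translation, whose symbols fall outside the rule, had summits at a share between those of the initiation and elongation factors. Of 39 such symbols, 32 were found in the annotation, and 6 of these had a summit (18.8%, 7.21 to 36.4). The list was broad and held more than translation factors. Among the further genes, rack-1 and larp-1 had a summit, while let-363, daf-15, raga-1, rsks-1 and ncbp-1 had none. The share over all protein-coding genes outside the 63 was 6.15%. The interval of the 32 overlapped those of both the initiation and the elongation factors. The 6 genes with a summit are listed next. They are named because of their summits: iff-2 (eIF5A; signal 168, 57 bp upstream), pab-2 (a poly(A)-binding protein; 160), larp-1 (an RNA-binding protein of the La-related family; 91.3), ife-4 (a cap-binding eIF4E protein; 87.2), ife-2 (another eIF4E; 73.9) and rack-1 (61.3), a protein of the small ribosomal subunit. The genes ife-2, ife-4 and pab-2 lie on chromosome X, where 8.68% of other genes had a summit. Among the listed genes without a summit were tufm-1, tsfm-1 and gfm-1, which encode elongation factors of mitochondria. Beside the 14.3% of translation factors and synthetases stood 45 of 81 ribosomal protein genes (55.6%) and 7 of 33 proteasome genes (21.2%). The interval of the ribosomal protein genes, 44.1 to 66.6, did not overlap that of the 63 genes, while the interval of the proteasome genes, 8.98 to 38.9, did.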

How the data were processed

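Per the deposited descriptions, peaks were called against a control, once for each replicate and once for both pooled, and the IDR list was made from those lists. Not given in the sources used here were the aligner, the peak caller, the IDR threshold and the depth. The labels give a size range of 150 to 350 without a unit. Column 7 of the deposited lists is the peak signal that the authors' caller gave, used only within a list. The 4 lists on ce11 were used and the 4 on ce10 were not.

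Gene starts came from Ensembl release 115, product names and sequence from NCBI RefSeq of the same assembly. The window held 1000 bp before and 500 bp after each start, and a replicate or pooled peak was assigned by its own summit. Shares have exact Clopper-Pearson 95% intervals. Each motif search covered both strands of the 101 bp around a summit, and overlapping matches counted. The assignment of summits to windows was tested on simulated data. Python 3.11.15, NumPy 2.4.6, SciPy 1.17.1 and matplotlib 3.10.9 were used. No tests between groups were run, since both replicates form 1 group.

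The genes and lists were chosen with earlier results of these data known. Genes were named by rule: every translation gene with an IDR summit, up to 6 with a peak in both replicate lists by pooled rank, and genes that share a summit with these. Others were named after their values were seen. The alternatives were 9 planned and 2 added after seeing the data.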

Additional observations from a re-analysis of the deposited data

How the results depend on the processing

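Of the 63 translation genes, 9 had a summit both with the strongest peaks of replicate 1 alone and with those of replicate 2 alone (9 to 9). Replicate 1 alone gave the same 9 genes. Replicate 2 alone shared 6 of them, with cars-1, eif-6 and fars-1 in place of ears-2, eef-1B.1 and eif-2Bgamma. Between these replicate lists the counts ran from 3 to 4 for elongation factors and from 2 to 3 for synthetases, with 3 initiation factors in both, and the ratio to other genes from 2.31 to 2.42. The share of the 63 genes was above that of other genes under all 11 alternatives run. It ran from 7.94% against 2.85% with the stronger 1377 IDR peaks to 17.5% against 8.86% with the window reaching 2000 bp upstream. Intervals for these shares were made for the main setting only, so whether each of these differences exceeds counting error was not tested. With the stronger 1377 IDR peaks the count was 5 of 63 (eef-1A.1, eef-2, eef-1A.2, eif-3.B and eif-3.C) and that of synthetases was 0. With each summit given to the nearest start only, 3 elongation factors and 1 synthetase had one. With operon-like genes left out, 1 initiation factor had a summit, since eif-3.C and eif-2Bgamma were themselves operon-like. An alternative chosen after seeing the data kept only summits that ranked within the 2754 strongest of both replicates. It gave 6 of 63 genes a summit (9.52%, against 4.18% of other genes), 3 of them elongation factors and 1 a synthetase. The start of the first gene of an operon-like run was the other alternative chosen after seeing the data. No paired analysis was possible because both replicates belong to 1 group. Depth is unknown, and how it limits the weaker peaks was not tested.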
